A study of Mus musculus with 39 samples.

Results

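Fads2, Elovl5, Fads1 and Elovl2 code for the enzymes that lengthen and desaturate dietary polyunsaturated fatty acids, and their transcripts were followed in mouse liver under phenobarbital. Every probe set of the array whose only gene symbol in the platform annotation was one of these names was taken, without regard to its values. This gave 8 probe sets of 4 genes, out of 34945 probe sets of a single gene that represent 18193 genes. The mice were male B6C3F1/Crl, a cross of C57BL/6 male x C3H/He female, 29 to 32 days old when they arrived and housed for 5 days before the study. Treated mice drank water containing 0.05% (w/v) phenobarbital, a drug that induces cytochrome P450 genes through the receptor CAR and is a liver tumour promoter that does not damage DNA. Control mice did not receive it, and all groups shared strain, sex and source. Livers were compared at 1, 7, 28 and 91 days, on 39 arrays: 4 from day 1 controls and 5 from every other group. Replicate numbers count the arrays of a group in their deposited order, since the labels give none. The treatment protocol speaks of 28 days of exposure, while the sample labels run to 91 days, and the labels were followed. The RNA came from whole liver, though the extraction protocol also mentions kidney.

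The liver makes long polyunsaturated fatty acids such as arachidonic acid and docosahexaenoic acid from the essential linoleic and alpha-linolenic acids. Fads2 introduces the initial double bond, Elovl5 adds carbons to the product, and Fads1 introduces the next double bond, which yields arachidonic and eicosapentaenoic acid. Elovl2 elongates these further on the way to docosahexaenoic acid. The desaturases take electrons from cytochrome b5, and in liver the pathway is known to be stimulated by SREBP1 and PPAR alpha and held down by dietary polyunsaturated fat.

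The bases just before the RefSeq starts of 3 of the 4 genes are shown because these genes followed different time courses in the same livers. They come from the RefSeq windows of GRCm38.p6 and are given 5′ to 3′ on the strand of the gene, each 250 bases long. They lie at chr19:10101504-10101753 on the minus strand for Fads2, at chr9:77917115-77917364 on the plus strand for Elovl5 and at chr13:41220404-41220653 on the minus strand for Elovl2. Capitals mark every match, on either strand, to the CCAAT motif, to the CACGTG motif and to the GGGCGG motif, which do not overlap each other.
Fads2: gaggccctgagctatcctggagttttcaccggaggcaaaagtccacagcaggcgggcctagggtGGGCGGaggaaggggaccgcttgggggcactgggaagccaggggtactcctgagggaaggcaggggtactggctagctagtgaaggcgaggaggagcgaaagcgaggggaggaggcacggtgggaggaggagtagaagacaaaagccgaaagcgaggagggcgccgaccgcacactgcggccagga
Elovl5: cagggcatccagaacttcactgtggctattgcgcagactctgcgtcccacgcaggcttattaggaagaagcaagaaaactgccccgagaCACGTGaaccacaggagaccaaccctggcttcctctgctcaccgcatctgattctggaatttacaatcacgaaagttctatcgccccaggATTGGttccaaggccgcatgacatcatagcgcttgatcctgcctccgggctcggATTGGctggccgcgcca
Elovl2: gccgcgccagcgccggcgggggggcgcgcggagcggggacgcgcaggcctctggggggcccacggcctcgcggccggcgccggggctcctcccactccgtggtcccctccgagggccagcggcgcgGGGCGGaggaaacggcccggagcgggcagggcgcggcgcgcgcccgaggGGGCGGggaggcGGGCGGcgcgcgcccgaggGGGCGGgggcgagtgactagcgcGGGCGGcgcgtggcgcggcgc

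The Elovl5 window held 2 CCAAT motifs, both on the opposite strand (as ATTGG), and 1 CACGTG motif. The Elovl2 window held 5 GGGCGG motifs and the Fads2 window 1. Elovl2 had 2 windows, and that with the outermost start is shown. Of all 32851 RefSeq windows of this length, 33.8% held CCAAT, 6.02% CACGTG and 32.7% GGGCGG. The share of G and C bases was 64.8% for Fads2, 55.6% for Elovl5 and 87.2% for Elovl2, beside a median of 52.4% over all windows. In the same annotation Fads2 and Fads1 are neighbours with 1 pseudogene and 0 protein-coding genes between them.

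All values are log2 signals as deposited, a difference of 1 being a doubling, and all 8 probe sets lay above the array median on all 39 arrays. Signals of different probe sets were not compared with each other as levels, because probe sets bind with different strength. Differences were tested in limma over the 21421 probe sets that passed the signal filter, with Benjamini-Hochberg adjustment, and called at an adjusted p under 0.05. The labels do not state that arrays came from separate animals, so p-values reflect only how far these samples spread, which may be technical. The drug response was present in every treated group: Cyp2b10, the classical CAR target, was higher by 6.21, 6.36, 6.90 and 5.64 at days 1, 7, 28 and 91. Hepatocyte markers averaged 14.01 to 14.23 on every array. Kidney markers averaged 4.55 to 5.60 with a median of 4.77, and were highest in day 28 control replicate 3. Day 1 treated replicate 3 stood apart with exocrine pancreas markers at a mean of 10.80, against a median of 5.50 over arrays, and day 7 treated replicate 3 with neutrophil markers at 10.20, against a median of 5.25. The hybridization controls, foreign transcripts added to every sample in fixed amount and read by 18 probe sets, differed between treated and control arrays. Their mean was lower in treated arrays by 0.25 at day 1 and higher by 0.89 at day 7, without overlap on either day (adjusted p = 0.0317 for both, exact permutation test). Treated arrays were lower by 0.34 at day 28 (adjusted p = 0.0423, exact permutation test) and higher by 0.22 at day 91 (adjusted p = 0.413, exact permutation test). The difference between 3' and 5' probe sets of Actb and Gapdh, a sign of RNA integrity and labelling, was lower in treated arrays at day 28 by 0.20 without overlap (adjusted p = 0.0317, exact permutation test). The median signal of treated arrays was lower by 0.04, 0.04, 0.03 and 0.05 at days 1, 7, 28 and 91 (adjusted p = 0.0159 each, exact permutation test). Their mean signal was lower by 0.02 on each day without overlap (adjusted p = 0.0159, 0.0106, 0.0106 and 0.0106, exact permutation test).

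Differences between treated and control livers were small in all 4 genes. At day 1, 4 of the 8 probe sets were called, 1 higher and 3 lower, where 35.2% of all probe sets tested were called, 14.0% higher and 21.1% lower. At day 7 the count was 2, at day 28 it was 1 and at day 91 it was 1, against 15.1%, 32.0% and 18.6% of all probe sets. The largest called difference was -0.56 on the log2 scale, and the median over the 8 probe sets was -0.21, -0.03, -0.06 and -0.18 at days 1, 7, 28 and 91, beside -0.02, -0.04, -0.03 and -0.06 over all probe sets tested. In these medians a gene with several probe sets counts several times. With 1 probe set per gene, the medians over the 4 genes were -0.13, 0.02, -0.01 and -0.07. The groups did not overlap for 2 of the 8 probe sets at day 1 (27.7% of all), 0 at day 7 (10.5%), 1 at day 28 (15.2%) and 0 at day 91 (10.1%). Without day 1 treated replicate 3 the count at day 1 was again 4, and without day 7 treated replicate 3 the count at day 7 was 1. In whole liver, fewer cells of a type and less RNA per cell cannot be told apart.

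**Figure D1:**
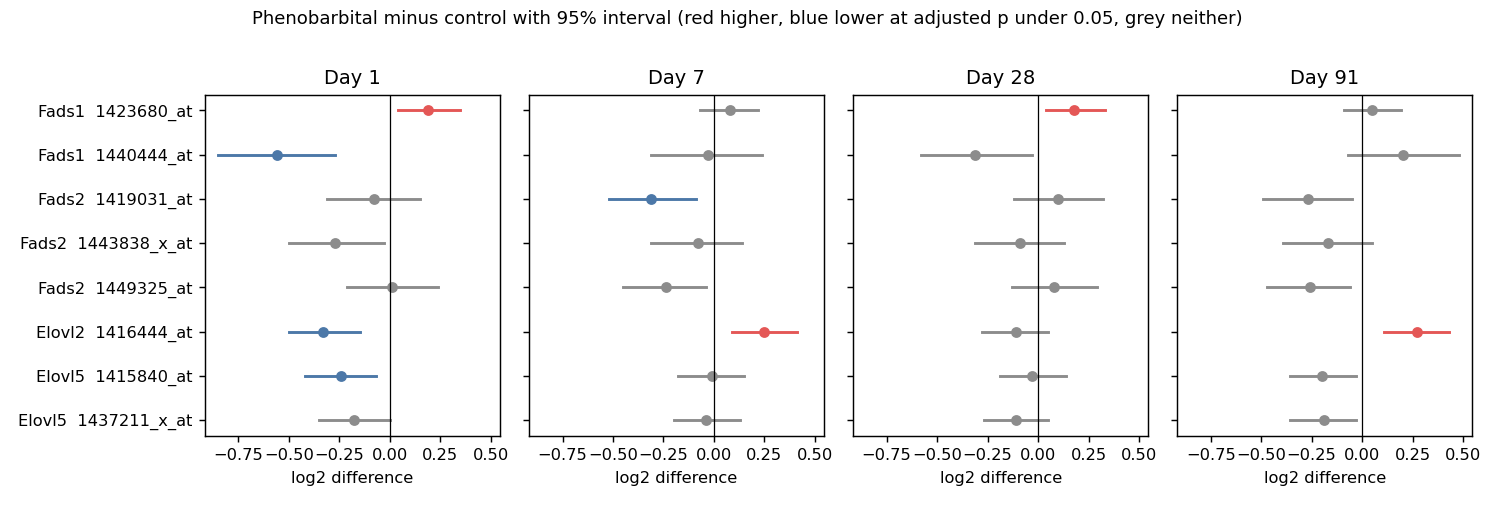
Treated minus control difference in log2 signal for each of the 8 probe sets (vertical axis) at days 1, 7, 28 and 91 (panels), with points for the limma estimate and lines for its 95% interval. Red and blue mark differences called higher and lower at an adjusted p under 0.05, and the intervals of the 8 called differences, from -0.56 for Fads1 1440444_at at day 1 to 0.27 for Elovl2 at day 91, do not cross 0.

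Fads2 opens the pathway, and its 3 probe sets showed no called change at day 1, 28 or 91. At day 7 the control arrays of 1419031_at read 11.89, 11.63, 12.08, 11.54 and 11.96, and the treated arrays 11.32, 11.45, 11.46, 11.62 and 11.72. The treated values lay in the lower part of the range, and the groups overlapped. The difference was -0.31 ± 0.11 (SE, limma, adjusted p = 0.0497, 5 against 5 arrays), the only call for this gene. The call was lost in 7 of the 10 fits that left out 1 array (without control replicate 1, 3 or 5 or treated replicate 1, 2, 3 or 4). The Fads2 difference was smallest without control replicate 3 (-0.24, adjusted p = 0.157), and without treated replicate 3, the array with neutrophil markers, it was -0.29 (adjusted p = 0.0841). With the hybridization controls as a covariate the difference was -0.10 (adjusted p = 0.741).

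The other probe sets of Fads2 gave -0.24 ± 0.10 (1449325_at, adjusted p = 0.104) and -0.08 ± 0.11 (1443838_x_at, adjusted p = 0.652) at day 7. At day 91 the 3 differences were -0.27, -0.17 and -0.26 for 1419031_at, 1443838_x_at and 1449325_at, with adjusted p of 0.0707, 0.279 and 0.0657. The day 91 control arrays of 1449325_at read 10.65, 11.04, 11.27, 11.13 and 11.01, and the treated arrays 10.69, 10.74, 10.68, 10.84 and 10.83. The 5 treated values were close together and lay below 4 of the 5 controls, control replicate 1 being the low one. Without control replicate 1, 3 probe sets of the 4 genes were called at day 91 in place of 1. Over the 10 fits that left out 1 array this count ranged from 0 to 4 and was unchanged in 6. Control replicate 1 also had a 3' minus 5' difference of 0.87, against 0.45 to 0.56 in the other day 91 controls. Its hybridization control mean of 11.77 was the highest of all arrays.

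The signal of 1419031_at minus that of 1443838_x_at was 2.41 ± 0.06 (SD, n = 4) in controls and 2.60 ± 0.04 (SD, n = 5) in treated arrays at day 1. It was 2.67 ± 0.06 and 2.44 ± 0.14 at day 7, and 2.41 ± 0.08 and 2.60 ± 0.03 at day 28 (SD, n = 5 each). Treated and control arrays did not overlap on any of these 3 days, with treated arrays above at days 1 and 28 and below at day 7, and each had an adjusted p of 0.0529 in exact permutation tests over 20 comparisons of probe sets of a gene. In those 20 comparisons 0 passed the threshold after adjustment and 8 had an unadjusted p under 0.05. The smallest p such a test can give was 0.0159 with 4 against 5 arrays and 0.00794 with 5 against 5.

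Elovl5, the elongase that follows Fads2, was called only at day 1 and in 1 of its 2 probe sets. These followed each other over arrays (r = 0.94 for deviations from group means, 39 arrays). At day 1 the control arrays of 1415840_at read 13.89, 13.84, 13.77 and 14.03, and the treated arrays 13.66, 13.80, 13.60, 13.53 and 13.60. Of the treated arrays 4 lay below every control and replicate 2 lay within their range. The difference was -0.24 ± 0.09 (SE, limma, adjusted p = 0.0262), and 1437211_x_at gave -0.18 ± 0.09 (adjusted p = 0.106). With each array centred on its median the difference of 1415840_at was -0.20 (adjusted p = 0.0729). The call was also lost without control replicate 4 (-0.19, adjusted p = 0.108) and without treated replicate 4 (-0.22, adjusted p = 0.0662).

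At days 7 and 28 the Elovl5 differences ranged from -0.11 to -0.01 over both probe sets, with no call. With arrays centred on their medians the day 7 differences were 0.03 and 0.00 and the day 28 difference of 1415840_at was 0.01, so no direction is given for these times. At day 91 they were -0.20 ± 0.08 for 1415840_at (adjusted p = 0.0795) and -0.19 ± 0.08 for 1437211_x_at (adjusted p = 0.0884). Day 91 treated arrays of 1437211_x_at read 13.73, 14.02, 13.73, 13.99 and 13.73, and controls 14.06, 13.99, 14.25, 13.93 and 13.94. Replicates 1, 3 and 5 of the treated group lay below all controls and replicates 2 and 4 lay among them.

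Fads1, which makes arachidonic acid, was read by a bright probe set, 1423680_at, and a dim one, 1440444_at, and these disagreed. For 1423680_at the day 1 controls read 12.53, 12.66, 12.60 and 12.45, and the treated arrays 12.81, 12.76, 12.70, 12.78 and 12.72. All treated values lay above all controls. The difference was 0.19 ± 0.08 (SE, limma, adjusted p = 0.0414), a ratio of 1.14. At day 28 the controls read 12.30, 12.16, 12.27, 12.06 and 12.25 and the treated arrays 12.35, 12.38, 12.46, 12.47 and 12.31, again with no overlap. The difference was 0.18 ± 0.07 (limma, adjusted p = 0.0448). At days 7 and 91 it was 0.08 ± 0.07 (adjusted p = 0.492) and 0.05 ± 0.07 (adjusted p = 0.653), with overlap.

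Both calls of 1423680_at lay near the threshold. Leaving out 1 array ended the day 1 call in 6 of 9 fits (without control replicate 1, 3 or 4 or treated replicate 1, 2 or 4), with the smallest difference without control replicate 4 (0.16, adjusted p = 0.138). It ended the day 28 call in 7 of 10 fits (without control replicate 2, 3 or 4 or treated replicate 1, 2, 3 or 4), with the smallest difference without control replicate 4 (0.15, adjusted p = 0.141). With the hybridization controls as a covariate the Fads1 differences were 0.18 (adjusted p = 0.0774) at day 1 and 0.16 (adjusted p = 0.130) at day 28, and with the 3' minus 5' difference as a covariate 0.17 (adjusted p = 0.104) and 0.12 (adjusted p = 0.381).

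For 1440444_at the day 1 controls read 7.46, 7.37, 6.73 and 6.86 and the treated arrays 6.14, 6.72, 6.56, 6.52 and 6.80. Controls 1 and 2 were high, controls 3 and 4 lay near the upper treated values, and the groups overlapped. This Fads1 probe set fell by 0.56 on the log2 scale (SE 0.14, limma, adjusted p = 0.00276), and the call was kept in 9 of 9 fits without 1 array. At day 28 the difference was -0.31 ± 0.14 (adjusted p = 0.0804) and at day 91 it was 0.20 ± 0.14 (adjusted p = 0.307). At day 7 it was -0.03 ± 0.14 (adjusted p = 0.909), and 0.03 after quantile normalization. At day 1 the bright minus the dim signal of Fads1 was 5.45 ± 0.35 (SD, n = 4) in controls and 6.21 ± 0.29 (SD, n = 5) in treated arrays, without overlap (adjusted p = 0.0529, exact permutation test).

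The bright and the dim Fads1 probe sets shared little over arrays, with r = 0.11 for deviations from group means, while the 3 pairs of Fads2 probe sets had r = 0.74 to 0.81 (39 arrays each). The dim probe set did not reach the upper quartile of the array on any array. The treatment effect on the dim Fads1 probe set differed between times. The effect at day 91 exceeded that at day 1 by 0.76 ± 0.20 (limma, adjusted p = 0.00404), where 32.4% of all probe sets tested were called, and 19 of 19 fits without 1 array kept this call. The effect at day 7 exceeded that at day 1 by 0.53 ± 0.20 (adjusted p = 0.0496, 22.5% of all called), and the effect at day 91 exceeded that at day 28 by 0.51 ± 0.19 (adjusted p = 0.0492, 25.2% of all called). These calls were lost in 11 of 19 and 13 of 20 fits without 1 array. Averaging both probe sets of Fads1 gave -0.18 (adjusted p = 0.0990) at day 1 and -0.06 (adjusted p = 0.603) at day 28, so the direction for the gene depends on which probe set is read.

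**Figure D2:**
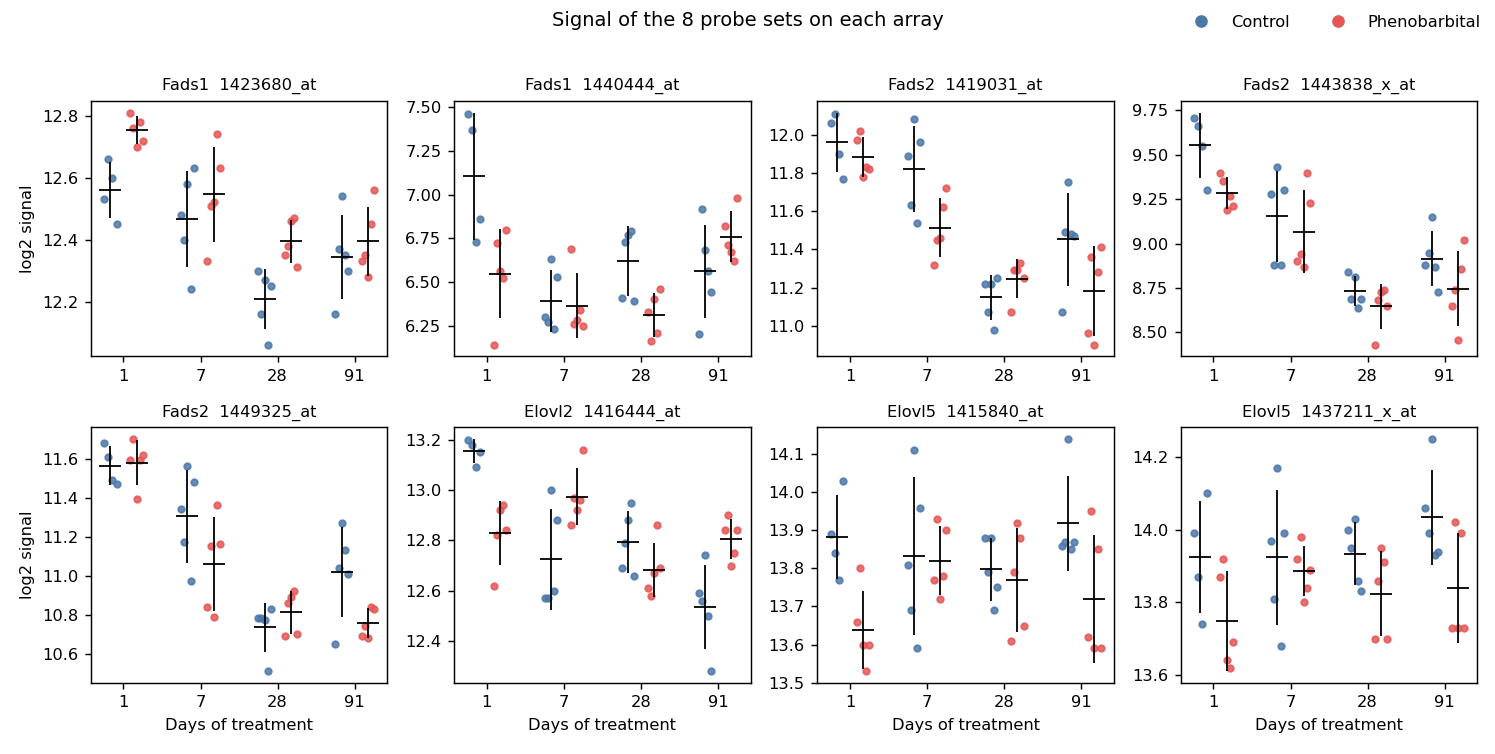
Log2 signal of the 8 probe sets on each of the 39 arrays (points) by days of treatment, control in blue and phenobarbital in red, with horizontal marks for group means and vertical lines for 1 SD. The treated arrays of Fads1 1423680_at lie above all controls at days 1 and 28, while the treated mean of 1440444_at lies below the control mean at the same times.

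Elovl2, the elongase of the last steps towards docosahexaenoic acid, was called at 3 of the 4 times, lower at day 1 and higher at days 7 and 91. At day 1 the controls read 13.20, 13.18, 13.09 and 13.15 and the treated arrays 12.62, 12.82, 12.92, 12.94 and 12.84. All treated values lay below all controls. Elovl2 fell by 0.33 on the log2 scale (SE 0.08, limma, adjusted p = 0.00305), and the call was kept in 9 of 9 fits without 1 array.

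At day 7 the Elovl2 controls read 12.57, 12.57, 13.00, 12.60 and 12.88 and the treated arrays 12.86, 12.97, 12.92, 12.96 and 13.16. Controls 1, 2 and 4 lay below all treated arrays, while controls 3 and 5 lay among them. The difference was 0.25 ± 0.08 (limma, adjusted p = 0.0297), and the call was lost in 5 of 10 fits without 1 array (without control replicate 1, 2 or 4 or treated replicate 4 or 5), with 0.20 (adjusted p = 0.0988) without treated replicate 5. At day 28 the difference was -0.11 ± 0.08 (adjusted p = 0.274), with overlapping groups.

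At day 91 the Elovl2 controls read 12.59, 12.56, 12.74, 12.50 and 12.28 and the treated arrays 12.84, 12.90, 12.70, 12.75 and 12.84. Only control replicate 3 reached into the treated range. Elovl2 rose by 0.27 ± 0.08 (limma, adjusted p = 0.0157), and the call was lost in 1 of 10 fits, the one without control replicate 5 (0.21, adjusted p = 0.0751).

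The effect of treatment on Elovl2 differed between times. The F test over the 4 days gave an adjusted p of 0.000257 in limma, where 37.1% of all probe sets tested were called. Among the 8 probe sets the other call was the dim probe set of Fads1 (adjusted p = 0.0128), and for the remaining 6 the adjusted p lay between 0.0936 and 0.710. The Elovl2 effect at day 7 exceeded that at day 1 by 0.58 ± 0.12 (adjusted p = 0.000744), and the effect at day 91 by 0.60 ± 0.12 (adjusted p = 0.000342). These comparisons share the day 1 arrays, and 22.5% and 32.4% of all probe sets were called in them. Between days 28 and 1, 0 of the 8 probe sets were called in limma, where 2.48% of all were, and 0 had an unadjusted p under 0.05. Between later times, the effect at day 28 minus that at day 7 was -0.37 ± 0.11 (adjusted p = 0.0270), and at day 91 minus day 28 it was 0.39 ± 0.11 (adjusted p = 0.0125), where 14.7% and 25.2% of all probe sets were called. The former call was lost in 6 of 20 fits without 1 array, with 1 of control replicates 1 and 2 or treated replicate 5 of day 7, or control replicates 3 and 4 or treated replicate 2 of day 28, left out.

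The hybridization controls moved in the same direction as Elovl2 on each of the 4 days. With their mean as a covariate in limma, the Elovl2 difference was -0.28 (adjusted p = 0.0107) at day 1, 0.08 (adjusted p = 0.718) at day 7, -0.05 (adjusted p = 0.712) at day 28 and 0.23 (adjusted p = 0.0436) at day 91. In this fit the calls at days 1 and 91 were kept and the call at day 7 was not. At days 1 and 7 the hybridization controls did not overlap between treated and control arrays. On those days the covariate cannot be told apart from treatment, so the fit cannot show which calls depend on it. The F test kept its call (adjusted p = 0.0188), as did the difference between days 91 and 1 (0.51, adjusted p = 0.00310). The differences between days 7 and 1 (0.36, adjusted p = 0.245), 28 and 7 (-0.13, adjusted p = 0.999) and 91 and 28 (0.28, adjusted p = 0.157) were not called in that fit. With the 3' minus 5' difference as a covariate, the differences between days 28 and 7 (-0.30, adjusted p = 0.162) and 91 and 28 (0.30, adjusted p = 0.240) were not called.

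**Figure D3:**
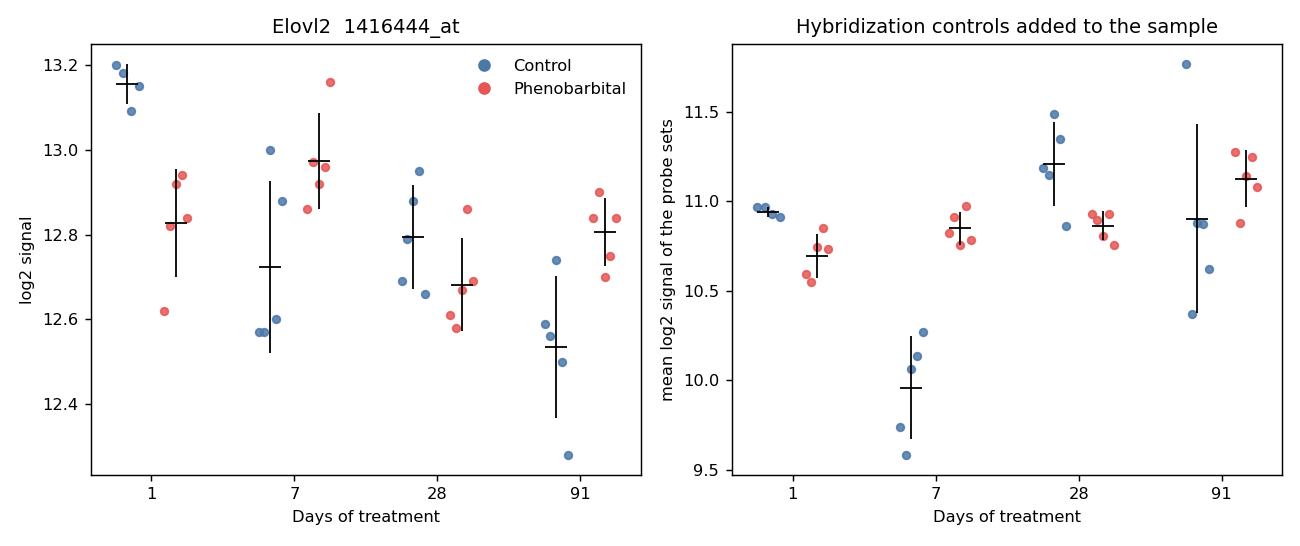
Log2 signal of Elovl2 1416444_at (left) and mean log2 signal of the 18 hybridization control probe sets (right) on each array by days of treatment, control in blue and phenobarbital in red, with group means and 1 SD. In both panels the treated mean lies below the control mean at days 1 and 28 and above it at days 7 and 91, without overlap of arrays at day 1.

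The desaturases and Elovl2 were lower in older control livers. From day 1 to day 91 of the study, 6 of the 8 probe sets fell in controls and 0 rose, where 35.0% of all probe sets tested were called and 17.5% of all tested were called lower. The median over the 8 probe sets was -0.52, beside 0.03 over all. With 1 probe set per gene, 3 of the 4 genes were called lower and the median was -0.36. All 3 probe sets of Fads2 fell, with differences of -0.51 ± 0.11, -0.64 ± 0.12 and -0.54 ± 0.11 for 1419031_at, 1443838_x_at and 1449325_at (limma, adjusted p = 0.000769, 6.09e-05 and 0.000207). Elovl2 fell by 0.62 ± 0.08 (adjusted p = 7.32e-07). Fads1 fell by 0.22 ± 0.08 in 1423680_at (adjusted p = 0.0249) and by 0.55 ± 0.14 in 1440444_at (adjusted p = 0.00331). The calls of Fads2, Elovl2 and the dim Fads1 probe set were kept in 9 of 9 fits without 1 array, and that of the bright Fads1 probe set was lost in 4 of 9, with -0.18 without day 1 replicate 2 (adjusted p = 0.0966), -0.20 without day 1 replicate 3 (0.0645), -0.17 without day 91 replicate 1 (0.0812) and -0.20 without day 91 replicate 5 (0.0506). Elovl5 gave 0.04 ± 0.09 (adjusted p = 0.764) and 0.11 ± 0.09 (adjusted p = 0.341).

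The fall was not even over time. From day 1 to day 28 the 3 probe sets of Fads2 fell, with differences of -0.81 ± 0.11, -0.82 ± 0.12 and -0.83 ± 0.11 (limma, adjusted p = 2.75e-06, 3.10e-06 and 7.47e-07), and in all 6 of the 8 probe sets fell, where 18.0% of all probe sets tested were called, 10.6% lower. From day 7 to day 28, 4 of the 8 fell, the 3 of Fads2 and 1423680_at of Fads1, where 46.2% of all were called, 23.3% lower. From day 28 to day 91 Fads2 was higher by 0.30 ± 0.11 in 1419031_at (adjusted p = 0.0499) and by 0.29 ± 0.10 in 1449325_at (adjusted p = 0.0493), where 15.7% of all were called, 7.46% lower, and of the 8 probe sets 2 rose and 1 fell. Each of these calls was lost in 8 of 10 fits without 1 array, and 1443838_x_at gave 0.18 ± 0.11 (adjusted p = 0.273). Elovl2 fell by 0.43 ± 0.08 between days 1 and 7 (adjusted p = 0.000294), where 36.1% of all were called, 19.8% lower, and 3 of the 8 probe sets fell. It fell by a further 0.26 ± 0.08 between days 28 and 91 (adjusted p = 0.0229), a call lost in 3 of 10 fits, without control replicate 3 or 4 of day 28 or 5 of day 91 (-0.24, -0.22 and -0.20). With the hybridization controls as a covariate these Elovl2 differences were -0.24 (adjusted p = 0.385) and -0.20 (adjusted p = 0.112). The comparisons over time share control arrays, so they are not independent of each other.

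In treated livers Fads2 and the bright Fads1 probe set were also lower at day 91 than at day 1. From day 1 to day 91 the treated arrays of Fads2 changed by -0.70 ± 0.11, -0.54 ± 0.11 and -0.82 ± 0.10, and those of Fads1 1423680_at by -0.36 ± 0.07 (limma, adjusted p = 1.70e-06, 0.000108, 3.66e-08 and 7.55e-05), where 48.3% of all probe sets tested were called, 25.3% lower, and 4 of the 8 fell. Elovl2 in treated arrays gave -0.02 ± 0.08 (adjusted p = 0.845). The difference between the treated and the control course of Elovl2 is the 0.60 ± 0.12 given for the effect at day 91 against day 1.

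Signals of other cell types changed in the same controls between days 1 and 91. All 6 Kupffer cell markers, 6 of 6 endothelial markers and 4 of 5 stellate cell markers were called lower, beside 17.5% of all probe sets tested. Mean Kupffer marker signal ranged from 8.96 to 9.41 at day 1 and from 8.15 to 8.36 at day 91, endothelial from 8.71 to 9.05 and from 8.01 to 8.35, and stellate from 9.05 to 9.58 and from 8.57 to 8.89. Of the 6 hepatocyte markers 2 were higher and 2 lower, with means of 14.05 to 14.11 and 14.11 to 14.23. Their part in the fall of Fads1, Fads2 and Elovl2 was not tested.

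**Figure D4:**
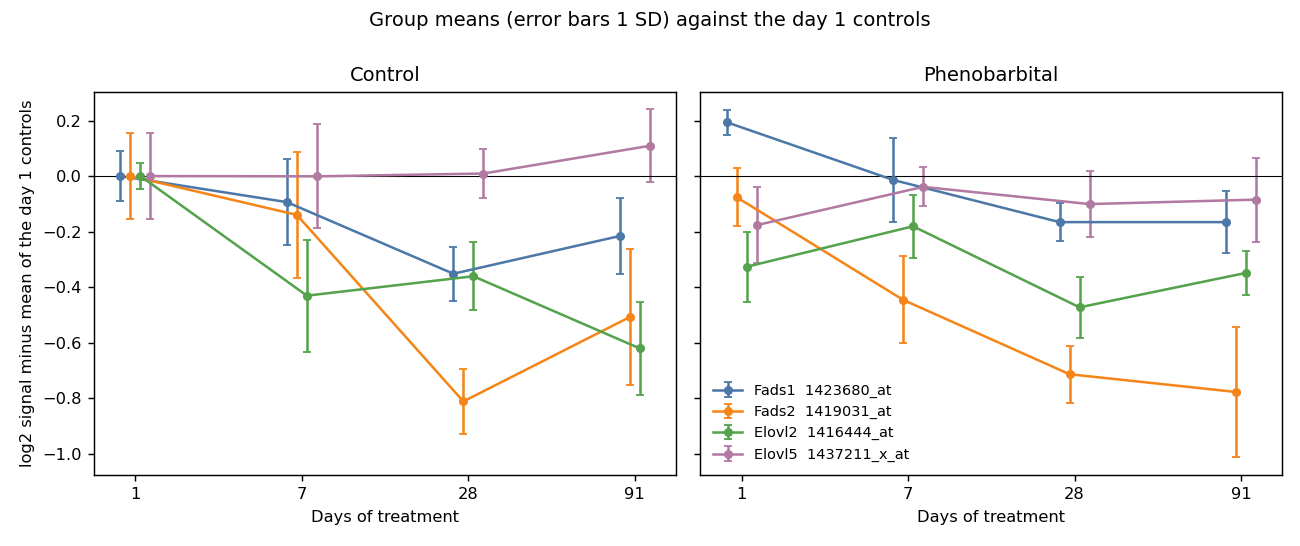
Group mean of log2 signal minus the mean of the day 1 controls for 1 probe set per gene, in controls (left) and under phenobarbital (right), by days of treatment, with error bars of 1 SD. Fads2 falls in both panels, with a difference of -0.81 to day 28 in controls, whereas from day 1 to day 91 Elovl2 changes by -0.62 in controls and by -0.02 under phenobarbital.

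Ordered by level over the 8 groups, Fads1 1423680_at was highest in day 1 treated arrays (12.75 ± 0.04, SD, n = 5), followed by day 1 controls (12.56 ± 0.09, SD, n = 4), and lowest in day 28 controls (12.21 ± 0.10, SD, n = 5). The top pair did not overlap, and all later neighbours in the order did. Fads2 1419031_at was highest in day 1 controls (11.96 ± 0.16, SD, n = 4), followed by day 1 treated (11.88 ± 0.11, SD, n = 5) and day 7 controls (11.82 ± 0.23, SD, n = 5). A step of 0.31 that exceeded both SDs separated these from day 7 treated arrays, and day 28 controls were lowest (11.15 ± 0.12, SD, n = 5). Elovl2 was highest in day 1 controls (13.15 ± 0.05, SD, n = 4) and then in day 7 treated arrays (12.97 ± 0.11, SD, n = 5), a step above both SDs with overlapping arrays. Its next 5 groups, from day 1 treated to day 28 treated, lay within 12.83 to 12.68 with neighbours that differed by less than an SD, and day 91 controls were lowest (12.53 ± 0.17, SD, n = 5). For Elovl5 1437211_x_at, group means ran from 14.03 in day 91 controls to 13.75 in day 1 treated arrays, the 4 control groups lay above the 4 treated groups, and no neighbouring pair differed by more than an SD. This order did not hold in the other Elovl5 probe set, 1415840_at. There the mean of day 7 treated arrays (13.82) lay above that of day 28 controls (13.80).

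Fads1 and Fads2 varied together between arrays of the same group. Deviations of 1423680_at and 1419031_at from their group means had r = 0.83 and rho = 0.83 over 39 arrays. Both had p = 1e-05, the smallest that 100000 permutations within groups can give, and adjusted p = 6e-05 over the 6 pairs of the 4 genes. Without the 2 arrays farthest from the median of Fads1, day 7 control replicate 4 and day 7 treated replicate 1, r was 0.82. It was 0.91 in the 19 control arrays and 0.74 in the 20 treated arrays, and 0.84 after the hybridization controls and the 3' minus 5' difference were removed. The other probe sets of Fads2 gave r = 0.81 and 0.83 with the bright probe set of Fads1, while the dim Fads1 probe set gave 0.27 with Fads2 1419031_at. By these deviations, among 12579 other genes tested, Fads2 ranked 1 by likeness to Fads1, and Fads1 ranked 1 by likeness to Fads2. By log2 signal over the same arrays, which also holds the differences between groups, the ranks were 89 and 134 (r = 0.792).

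Fads2 and Elovl5 also varied together, with r = 0.50 and rho = 0.50 (permutation p = 0.00797 and 0.0058, adjusted p = 0.0239 and 0.0174), and with r = 0.50 without the 2 outermost arrays. The other 4 pairs had r of 0.32 to 0.35, with adjusted p of 0.0984 to 0.108 by permutation.

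**Figure D5:**
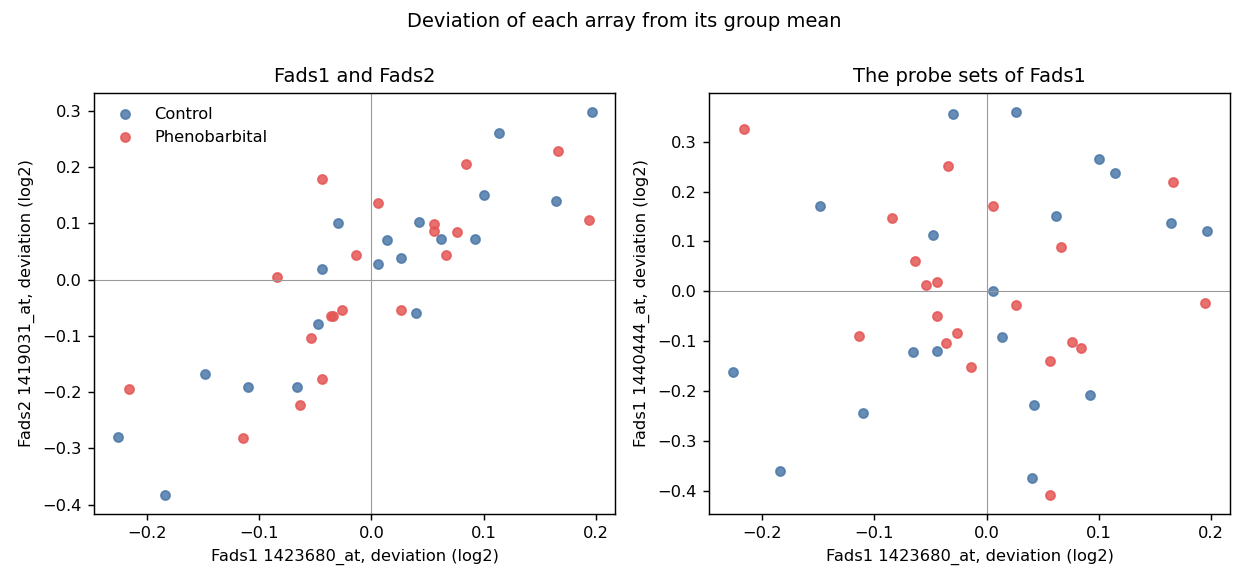
Deviation of each array from its group mean in log2 signal, for Fads1 1423680_at (horizontal axes) against Fads2 1419031_at (left, r = 0.83) and against the other Fads1 probe set, 1440444_at (right, r = 0.11). Each point is 1 of 39 arrays, control in blue and phenobarbital in red, and the points lie along a line in the left panel and scatter in the right.

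Outside the 4 genes, the closest patterns over the 39 arrays were sought among genes tested, 1 probe set each. By log2 signal, Fads1 was most like Fmo1 (r = 0.886), Alg14 (0.870) and Nup93 (0.864), and Fads2 most like Rab34 (0.922), Col5a1 (0.890) and Ggct (0.878). Elovl2 was most like Rfk (0.778), Fscn1 (0.755) and Cep70 (0.748), and Elovl5 most like Rmnd5a (0.772), Scd1 (0.748) and Shfl (0.729). By deviations from group means, Elovl5 was most like Acsl5 (0.879), Me1 (0.863) and Scd1 (0.838), which code for an acyl-CoA synthetase, malic enzyme and stearoyl-CoA desaturase. By the same measure, Fads1 was most like Polr2e (0.770), Idh2 (0.753) and Ggct (0.743). Fads2 was most like Vnn3 (0.817), Polg (0.804) and Hsd17b4 (0.784), of which Hsd17b4 codes for the peroxisomal multifunctional enzyme. Elovl2 was most like Sec23a (0.757), Alg6 (0.743) and Dync1i2 (0.735). These are descriptions over arrays that share groups and processing.

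The other genes of the pathway were read from lists, 1 probe set per gene, and their counts stand beside the shares of all probe sets tested. Of these, 14.0%, 5.07%, 11.2% and 4.21% were called higher at days 1, 7, 28 and 91, and 21.1%, 20.7% and 14.4% were called lower at days 1, 28 and 91 and 2142 of 21421 at day 7, with medians of -0.02, -0.04, -0.03 and -0.06. No list was compared with these shares by a test. Of 5 other fatty acid elongases 3 were tested, with 1, 2, 2 and 1 called higher at the 4 times, and Elovl1, which extends saturated and monounsaturated chains, rose at every time, by 0.48 ± 0.12, 0.55 ± 0.11, 0.61 ± 0.11 and 0.54 ± 0.11 at days 1, 7, 28 and 91 (limma, adjusted p = 0.00265, 0.00130, 0.000178 and 0.00150). Elovl6, which extends palmitate, rose by 0.72 ± 0.23 at day 7 (adjusted p = 0.0292) and by 0.98 ± 0.23 at day 28 (adjusted p = 0.00157). The Elovl6 difference at day 7 with the hybridization controls as a covariate was 0.63 (adjusted p = 0.264), and 5 of 10 fits without 1 array lost the call. None of the 3 was called lower at any of the 4 times. The median of the list was 0.06, 0.55, 0.61 and -0.13 over the 3 genes at the 4 times.

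Of 8 other desaturases 6 were tested. Scd3, a stearoyl-CoA desaturase, rose by 0.35 ± 0.08, 0.36 ± 0.08 and 0.34 ± 0.08 at days 1, 7 and 28 (limma, adjusted p = 0.00160, 0.00207 and 0.00152). Fads6 fell by 0.31 ± 0.10 at day 1 (adjusted p = 0.0161), and Degs1, the sphingolipid desaturase, fell by 0.24 ± 0.07 at day 1 (adjusted p = 0.00615) and by 0.24 ± 0.06 at day 28 (adjusted p = 0.00493), the latter being -0.10 with the 3' minus 5' difference as a covariate (adjusted p = 0.349). With the probe sets of Degs1 averaged the differences were -0.04 (adjusted p = 0.519) and -0.02 (adjusted p = 0.766). Of the 6 desaturases 1, 1, 1 and 0 were higher and 2, 0, 1 and 0 lower at days 1, 7, 28 and 91, with medians of 0.00 to 0.05. In either direction these are 3, 1, 2 and 0 of 6, beside 35.2%, 15.1%, 32.0% and 18.6% of all probe sets.

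The remaining steps of the elongation cycle, reduction and dehydration of the lengthened chain, had called genes in both directions among 6 tested. Hacd3, a dehydratase, fell by 0.37 ± 0.05, 0.17 ± 0.05 and 0.30 ± 0.05 at days 7, 28 and 91 (limma, adjusted p = 7.57e-07, 0.00662 and 4.80e-05), the day 28 difference being -0.09 with its probe sets averaged (adjusted p = 0.241). Tecr, the final reductase, rose by 0.34 ± 0.10 at day 1 (adjusted p = 0.0107) and by 0.36 ± 0.10 at day 28 (adjusted p = 0.00509), the latter being 0.10 with the 3' minus 5' difference as a covariate (adjusted p = 0.511) and 0.22 with the hybridization controls (adjusted p = 0.0595). Tecr fell by 0.29 ± 0.10 at day 91 (adjusted p = 0.0349), a call lost in 7 of 10 fits without 1 array and with arrays centred on their medians (-0.24, adjusted p = 0.0859). Of the 6 genes 2, 0, 1 and 1 were higher and 0, 2, 2 and 4 lower at the 4 times. The 4 lower genes at day 91, with a median of -0.23 over the 6, stand beside 14.4% of all probe sets called lower. For electron supply 5 genes were tested, with 2, 1, 2 and 1 higher and 1, 0, 1 and 1 lower at the 4 times. Cyb5a, cytochrome b5, rose by 0.19 ± 0.03, 0.26 ± 0.03, 0.16 ± 0.03 and 0.16 ± 0.03 at days 1, 7, 28 and 91 (adjusted p = 1.23e-05, 1.14e-08, 6.60e-05 and 9.36e-05). Cyb5b, the mitochondrial form, fell by 0.30 ± 0.09 at day 91 (adjusted p = 0.0233), a call lost in 5 of 10 fits without 1 array. Cyb5r1 rose by 0.31 ± 0.11 at day 1 (adjusted p = 0.0235), a call lost in 4 of 9 fits. Cyb5r3 rose by 0.29 ± 0.07 at day 28 (adjusted p = 0.00132). Cyb5r4 fell by 0.23 ± 0.05 at day 1 and by 0.14 ± 0.05 at day 28 (adjusted p = 0.00103 and 0.0279), the latter call lost in 5 of 10 fits.

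Genes that activate, shorten or store polyunsaturated fatty acids were followed in 3 lists. Of 3 long-chain acyl-CoA synthetases tested, 2, 0, 1 and 0 were lower and 0 higher at days 1, 7, 28 and 91. Acsl4, which prefers arachidonic acid, fell by 0.57 ± 0.15 at day 1 (limma, adjusted p = 0.00287). Acsl3 fell by 0.39 ± 0.15 at day 1 (adjusted p = 0.0429), a call lost in 6 of 9 fits without 1 array, and by 0.57 ± 0.14 at day 28 (adjusted p = 0.00302), -0.47 with the 3' minus 5' difference as a covariate (adjusted p = 0.0813). Of 9 genes of peroxisomal chain shortening, which completes the synthesis of docosahexaenoic acid, 3, 0, 2 and 2 were lower and 0 higher at days 1, 7, 28 and 91, and, read beside the 21.1%, 20.7% and 14.4% of all probe sets lower at days 1, 28 and 91, these counts are near the shares of all. Acaa1a, the peroxisomal thiolase, fell by 0.76 ± 0.14 at day 1 (adjusted p = 0.000129) and by 0.56 ± 0.14 at day 28 (adjusted p = 0.00235), the latter being -0.23 with the 3' minus 5' difference as a covariate (adjusted p = 0.300). Acox3, a peroxisomal acyl-CoA oxidase, fell by 0.42 ± 0.09 at day 91 (adjusted p = 0.00213). Of 9 genes that place these fatty acids in phospholipids or release them, 0, 0, 1 and 0 were higher and 1, 1, 1 and 2 lower, again near the shares of all. Mboat7, which transfers arachidonate to phosphatidylinositol, fell by 0.42 ± 0.08 at day 91 (adjusted p = 0.000786), and Pla2g6, a phospholipase, rose by 0.39 ± 0.10 at day 28 (adjusted p = 0.00305), 0.25 with the 3' minus 5' difference as a covariate (adjusted p = 0.152).

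Among 12 tested genes that oxygenate these fatty acids or clear the products, 1, 2, 2 and 0 were higher and 3, 3, 3 and 1 lower at days 1, 7, 28 and 91. At day 1 this is 4 of 12, beside 35.2% of all probe sets called in either direction, and at days 7, 28 and 91 it is 5, 5 and 1 of 12, beside 15.1%, 32.0% and 18.6%. Ephx1, an epoxide hydrolase and a known target of CAR, rose by 0.92 ± 0.10 at day 1, by 0.49 ± 0.10 at day 7 and by 0.63 ± 0.10 at day 28 (limma, adjusted p = 4.49e-08, 0.000588 and 1.30e-05), and gave 0.15 ± 0.10 at day 91 (adjusted p = 0.279). Ephx2, another epoxide hydrolase, was called lower at days 1, 7 and 28, with -0.22, -0.25 and -0.22 (limma, adjusted p = 0.0214, 0.0138 and 0.0132). Its calls at days 1 and 7 were lost in 3 of 9 and 2 of 10 fits without 1 array. Cyp2j6, an epoxygenase, fell by 0.37 ± 0.09 at day 1 (adjusted p = 0.00220) and by 0.33 ± 0.09 at day 28 (adjusted p = 0.00406). Cyp4a14, an omega hydroxylase and a classical PPAR alpha target, fell by 2.09 ± 0.70 at day 7 (adjusted p = 0.0387) and fell by 1.87 ± 0.70 at day 28 (adjusted p = 0.0380), and each call was lost in 7 of 10 fits without 1 array.

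Among regulators of the pathway, Ppara, the gene of PPAR alpha, fell by 1.00 ± 0.12, 0.48 ± 0.12, 0.87 ± 0.12 and 0.46 ± 0.12 at days 1, 7, 28 and 91 (limma, adjusted p = 2.75e-07, 0.00470, 1.52e-06 and 0.00587). Srebf1, the gene of SREBP1, fell by 0.72 ± 0.18 at day 1 (adjusted p = 0.00168) and gave -0.28, -0.04 and 0.13 later, without a call. Called higher at day 1 were Pparg (0.56 ± 0.18), Insig2 (0.42 ± 0.10), Mlx (0.39 ± 0.10) and Mlxipl (0.22 ± 0.08). Their adjusted p values in limma were 0.0145, 0.00184, 0.00304 and 0.0318, and 5 of 9 fits without 1 array lost the Mlxipl call. Pparg was also called higher at day 7 (0.69), Insig2 at days 7 and 28 (0.49 and 0.29) and Mlx at day 28 (0.36). Mlxipl, the gene of the glucose sensor ChREBP, rose by 0.40 ± 0.08 at day 28 (adjusted p = 0.000217), and Insig1, which retains SREBP in the endoplasmic reticulum, rose by 0.47 ± 0.13 at day 91 (adjusted p = 0.0112), a call lost in 1 of 10 fits without 1 array. Over the 11 regulators tested, 4, 2, 3 and 1 were higher and 2, 2, 1 and 3 lower at the 4 times, with medians of -0.02, -0.04, 0.12 and -0.11. In either direction these are 6, 4, 4 and 4 of 11, beside 35.2%, 15.1%, 32.0% and 18.6% of all probe sets. Of 10 SREBP1 lipogenic targets, which include Elovl6, 2, 3, 5 and 1 were higher and 0 lower, beside 14.0%, 5.07%, 11.2% and 4.21% of all probe sets called higher, so the counts at days 1 and 91 are near the shares of all. The largest differences were those of Thrsp, a regulator of lipogenesis, with 1.42 ± 0.19 at day 28 (adjusted p = 1.02e-06) and Pnpla3, a lipid droplet acyltransferase and lipase, with 1.55 ± 0.39 at day 28 (adjusted p = 0.00264) and 1.30 ± 0.39 at day 91 (adjusted p = 0.0172), a call lost without control replicate 5 (1.06, adjusted p = 0.0714). At day 28, when Fads1 1423680_at was the only called probe set of the 4 enzymes, the median of the lipogenic targets was 0.50.

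Some markers of stellate and endothelial cells were also lower in treated groups. Of 5 stellate cell markers 0, 2, 3 and 2 were called lower at days 1, 7, 28 and 91. Of 6 endothelial markers 1, 2, 4 and 2 were called lower at these times, and 0 markers of either type were called higher. Over all probe sets tested, 21.1%, 20.7% and 14.4% were called lower at days 1, 28 and 91, and 2142 of 21421 at day 7. Of 6 Kupffer cell markers 0 were called at any of the times. Of 3 cholangiocyte markers tested, 1 was called lower at day 7 and 1 higher at day 28. Mean stellate signal was lower in treated arrays by 0.12, 0.22, 0.35 and 0.25 (adjusted p = 0.333, 0.0529, 0.0317 and 0.0476, exact permutation test). At day 28 it was 8.15 to 8.54 in treated and 8.71 to 8.84 in control arrays, and at day 91, when Elovl2 was called, 8.37 to 8.60 and 8.57 to 8.89. Mean endothelial signal was lower by 0.18, 0.23, 0.19 and 0.12 (adjusted p = 0.127, 0.127, 0.175 and 0.175, exact permutation test). Their part in the differences of the 4 enzymes was not tested.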

How the data were processed

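Total RNA from whole liver was hybridised to Affymetrix mouse arrays, and 39 arrays in 8 groups of treatment and time were used, grouped by the sample labels. The authors deposited 1 table of log2 signals for 45101 probe sets. GCOS is named per the submitters' processing notes, and how background was corrected and signals normalized is not given in the sources used here. Probe sets were named from the platform annotation: 34958 had 1 symbol, 932 several and 9211 none, and none was named from several. After removal of control probe sets, a probe set was tested if it lay above the array median on at least 4 arrays, which kept 21421 of 34945. The 39 arrays were fitted in limma 3.58.1 (R 4.3.3) with 1 mean per group and a trended prior variance (31 residual degrees of freedom). Treated minus control at each day, differences between these effects, an F test over days and changes over time were tested with Benjamini-Hochberg adjustment over all probe sets tested per comparison. Single values were compared by two-sided exact permutation tests over arrays (scipy 1.17.1). Correlations used deviations from group means, permuted within groups. The script was tested on simulated data. Alternatives covered scaling, the filter, probe sets per gene, the prior variance, array weights, the groups fitted, 2 array measures as covariates, each array left out and, chosen after seeing the data, the subsets and probe sets of the correlations and further contrasts over time. The genes named were the members, the closest genes by correlation and called genes of each list. Some of the list genes were chosen after their values were seen. Called genes with larger differences than some of those named were left out. Among these were Ptgds (0.95 at day 28) and Pla2g4a (-0.53 at day 1). The members and lists were chosen with earlier results of these data known. No read depth exists for arrays, and the number of arrays limits the precision. No RefSeq window was found for Fads1.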

Additional observations from a re-analysis of the deposited data

Results flagged for a closer look

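In 80 groups of array values, 5 held an array far from the rest, where chance gives about 1 in 20. Fads1 1440444_at read 6.69 in day 7 treated replicate 1, against 6.25 to 6.34 in the other arrays of the group. Fads2 1443838_x_at read 8.43 in day 28 treated replicate 1, against 8.65 to 8.74. Fads2 1449325_at read 10.51 in day 28 control replicate 4, against 10.77 to 10.83. Elovl5 1415840_at read 14.14 in day 91 control replicate 3, against 13.85 to 13.87. The 3' minus 5' difference of Actb and Gapdh was 0.87 in day 91 control replicate 1, against 0.45 to 0.56.

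The treatment effect differed between times for 2 probe sets. For Elovl2 1416444_at the differences between effects were 0.58 (day 7 minus 1), 0.60 (day 91 minus 1), -0.37 (day 28 minus 7) and 0.39 (day 91 minus 28), with an adjusted p of 0.000257 for the F test in limma. For Fads1 1440444_at they were 0.53 (day 7 minus 1), 0.76 (day 91 minus 1) and 0.51 (day 91 minus 28), with an adjusted p of 0.0128 for the F test.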

How the results depend on the processing

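No paired analysis was possible because the labels give no replicate numbers or pairs. Of 75 results on the 8 probe sets, 32 kept their direction and their side of the threshold under all alternatives and 10 changed direction under at least 1; of 125 results on other pathway genes, 70 kept both and 1 changed direction (Ltc4s at day 7, 0.03 with the hybridization controls as a covariate). The day 1 count of 4 called probe sets was 2 with 1 probe set per gene and 1 with probe sets averaged per gene. The day 7 count of 2 was 1 with quantile normalization, centred arrays, no filter, gene means or no prior trend, and 0 with only the compared groups or the hybridization controls as a covariate. The day 28 count of 1 was 0 with no filter, gene means, no prior trend or either covariate, and 2 with array weights or only the compared groups. The day 91 count of 1 was 3 with array weights. The count of 6 for controls from day 1 to day 91 was 3 with 1 probe set per gene and with gene means, and the F test count of 2 was 1 under both and under a stricter filter. For settings that test 1 value per gene there are fewer probe sets to count; otherwise the cause was not tested. Without 1 array the counts ranged from 2 to 4 (day 1), 0 to 2 (day 7), 0 to 2 (day 28), 0 to 4 (day 91), 5 to 6 (controls over time) and 2 to 4 (F test).

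Direction changed as follows. Fads1, higher in 1423680_at, was -0.18 at day 1 and -0.06 at day 28 with gene means, which average both of its probe sets. Fads1 1440444_at at day 7 was 0.03 with quantile normalization, 0.01 centred and 0.07 with the hybridization controls, and -0.11 to 0.03 without 1 array. Fads2 1419031_at at day 28 was -0.06 with the 3' minus 5' difference. Fads2 1449325_at at day 1 was -0.02 with the hybridization controls and -0.07 with the 3' minus 5' difference, and -0.02 to 0.06 without 1 array; at day 28 it was -0.10 with the 3' minus 5' difference. Elovl5 1415840_at was 0.03 at day 7 and 0.01 at day 28 centred, and without 1 array -0.07 to 0.05 at day 7, -0.07 to 0.01 at day 28 and -0.02 to 0.09 in controls over time. Elovl5 1437211_x_at at day 7 was 0.00 centred and -0.10 to 0.02 without 1 array. In the main fit all these differences were uncalled except the 0.19 and 0.18 of Fads1 1423680_at. The gene means of Fads1 with the opposite direction were uncalled. The number of arrays limits what can be resolved.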
